A study of Mus musculus with 9 samples.

Results

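This account covers the Rab family of small GTPases, read as transcript levels in spermatogonia of the young mouse testis. Its members were chosen by gene symbol: every entry of the deposited expression table named Rab, a number and at most a letter and a further digit, on 1 entry only. This gave 58 genes of 23045 single-entry symbols. The family was taken up with the difference of Rab4a between the sorted fractions already known, so the values of Rab4a are given as a description and carry no test, while no measured value picked the other symbols.

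RNA sequencing was done on sorted cells of pups at postnatal day 6. All cells came from LT-11B6 mice, which carry an Id4-eGfp transgene on a C57BL/6 background, and all were sorted as EGFP-positive, so the population is the one this Id4 reporter marks. There were 3 libraries of all ID4-EGFP+ spermatogonia, 3 of TSPAN8-high cells and 3 of TSPAN8-low cells, meaning the third of the EGFP-positive cells that an antibody to the surface tetraspanin TSPAN8 stained most strongly and the third it stained most weakly. The 3 libraries of a group are separate preparations of cells. The labels do not say how many pups or litters went into each, and the p-values therefore measure the spread between preparations.

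Rab proteins are molecular switches of membrane traffic. Bound to GTP, a Rab sits on the membrane of 1 kind of compartment and recruits effectors such as tethers, motors and sorting proteins, and bound to GDP it is drawn back into the cytosol. Exchange factors load GTP, GTPase-activating proteins (GAPs) end the active state, and the GDP dissociation inhibitors carry the prenylated protein between membranes. In germ cells, as elsewhere, this cycle brings receptors to the surface, takes them up, and sends them back or to the lysosome. The 58 genes were placed by their best known site of action: 7 in the early endosome, 9 in the recycling endosome, 8 in the late endosome and lysosome, 12 in secretory and exocytic traffic, 16 in the endoplasmic reticulum (ER) and Golgi, and 6 elsewhere or unplaced.

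The libraries were close to each other. Between 10734 and 11155 entries per library reached 1 FPKM (fragments scaled by transcript length and by the mapped fragments of the library), and r of log2(FPKM + 1) across genes was 0.981 to 0.991 within groups and 0.966 to 0.991 between groups. The absolute depth is unknown. Relative depth, read from the steps of the lowest values, was 0.855 to 1.05 of that of all ID4-EGFP+ replicate 1. The 6 germ cell markers were all expressed, with a summed 1683 to 2404 FPKM per library. Markers of Sertoli cells, the supporting cells of the tubule, varied between libraries: their 11 genes summed to 15.8 to 103 FPKM in all ID4-EGFP+ libraries, to 87.4, 96.7 and 221 in TSPAN8-high and to 11.1, 19.5 and 137 in TSPAN8-low. This sum was higher in TSPAN8-high within each of the 3 replicate numbers, although the defining genes Sox9, Wt1, Amh and Gata4 stayed under 1 FPKM in every library. Of the 5 Sertoli markers tested between the fractions, 0 passed by limma (4 at an unadjusted p under 0.05) and all 5 passed with the replicate number as a block, as did 2 of the 6 germ cell markers and 1 of 2 tested leukocyte markers. Of all 11142 tested genes, 5.56% passed by limma (2448 genes at an unadjusted p under 0.05) and 19.1% with the block. Leukocyte markers summed to 13.8 to 22.9 FPKM in TSPAN8-high and to 6.53 to 16.0 in TSPAN8-low, with Ptprc and Csf1r under 1 FPKM in every library. Peritubular myoid markers summed to 3.57 to 7.63 FPKM in TSPAN8-high and to 1.55 to 3.73 in TSPAN8-low, Leydig markers to at most 6.48 FPKM in any library and endothelial markers to at most 1.70. The part of these cell types in the differences below was not tested. In such bulk samples, fewer cells of a type and less RNA per cell cannot be told apart.

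The levels of the family spanned from several genes above 100 FPKM down to Rab17, listed at 0. In all ID4-EGFP+ cells, 6 Rab genes stood at 100 FPKM or more, 18 at 10 up to 100, 20 at 1 up to 10 and 14 under 1. Rab33b, whose product acts at the Golgi and in the formation of autophagosomes, was the highest at 509, 492 and 679 FPKM in the 3 libraries. Rab11a, the main Rab of the recycling endosome, followed at 288 ± 72.3 FPKM (mean ± SD, n = 3), and its 3 values lay below all 3 of Rab33b. Next came Rab7 of the late endosome (174 ± 16.9 FPKM), Rab18 of the ER and lipid droplets (158 ± 37.2), Rab2a of the ER and Golgi interface (145 ± 6.98) and Rab1 of ER export (125 ± 21.3). Every value of Rab7 lay above every value of Rab2a and Rab1, while the values of Rab18 overlapped those of the other 3 genes and the values of Rab2a overlapped those of Rab1.

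By compartment, the ER and Golgi genes held 51.1% of the summed Rab FPKM in all ID4-EGFP+ cells, the recycling endosome 21.7%, the late endosome and lysosome 12.1%, the secretory genes 6.95%, the early endosome 6.15% and the rest 2.07%. Rab33b alone made up much of the first of these: without it the ER and Golgi sum was 570 ± 39.4 in place of 1130 ± 97.7 FPKM. The early endosome had no gene of such a level, and its leading pair was Rab5a and Rab5c, at 42.0 ± 6.20 and 44.9 ± 10.3 FPKM. In the secretory group Rab10 and Rab8a, which serve delivery from the Golgi and recycling endosomes to the plasma membrane, stood at 64.7 ± 7.37 and 40.4 ± 4.52 FPKM. Several other secretory genes were barely listed: Rab27a reached at most 0.364 FPKM in any library, Rab27b 0.0286, Rab3c 0.107 and Rab37 0.433.

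**Figure D1:**
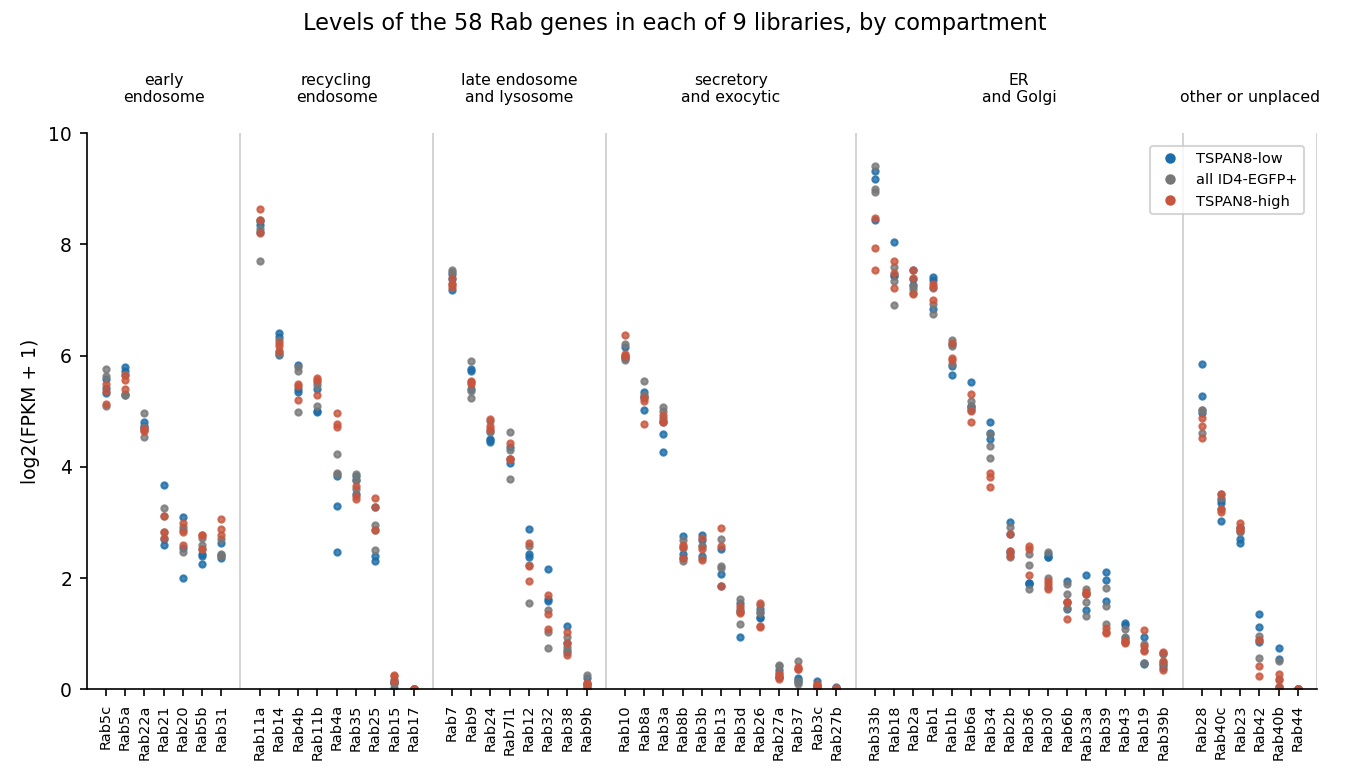
Level of each of the 58 Rab genes as log2(FPKM + 1) in each of the 9 libraries, 1 point per library, grouped by compartment and ordered by the mean within it. Colours mark the 3 groups of libraries, and in most columns the colours are mixed; Rab33b, Rab4a and Rab34 are the columns of well expressed genes in which TSPAN8-high and TSPAN8-low points sit furthest apart.

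To be tested, a gene had to reach 1 FPKM in at least 3 of the 9 libraries, which 45 of the 58 Rab genes did. All 7 early endosome genes passed, as did 7 of 9 in the recycling endosome, 6 of 8 in the late endosome and lysosome, 8 of 12 secretory, 14 of 16 ER and Golgi and 3 of 6 other genes. Just inside the limit was Rab43, which reached it in all ID4-EGFP+ replicate 1 (1.13 FPKM) and in TSPAN8-low replicates 1 and 2 (1.25 and 1.29). Just outside were Rab42 (0.176 to 1.57 FPKM), Rab38 (0.545 to 1.20) and Rab19 (0.382 to 1.09). The remaining untested genes were Rab9b, Rab15, Rab27a, Rab27b, Rab3c, Rab37, Rab39b, Rab40b, Rab44 and Rab17, the last listed at 0 in every library.

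Between the fractions, most Rab genes differed little. The median size of the difference between TSPAN8-high and TSPAN8-low, without regard to sign, was 0.18 on the log2(FPKM + 1) scale over the 45 genes and 0.21 over all 11142 genes tested, and 38 of the 45 were under 0.5. By limma with Benjamini-Hochberg adjustment over all tested genes, 4 of 45 Rab genes (8.89%) passed an adjusted p of 0.05, beside a background of 5.56% of all tested genes. Higher in TSPAN8-high was Rab4a alone, beside a background of 3.41%, and lower were Rab33b, Rab34 and Rab39, beside 2.15%. Since Rab4a was known when the family was taken up, nothing is read from these shares. In sign, 17 of the 45 differences were above 0 and 28 below, with a median of -0.06, where all tested genes had 6301 above and 4841 below and a median of 0.05. With the 3 libraries of each fraction set side by side, 6 Rab genes lay wholly higher in TSPAN8-high (background 15.9%) and 6 wholly lower (background 9.71%).

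The replicate numbers in the labels were taken to pair the libraries of the groups, since libraries of the same number deviated together. The labels do not state a pairing, and the ranges of r touch (0.26 to 0.48 for the same number, -0.46 to 0.28 for others). With the number as a block in the same limma fit, 9 of 45 Rab genes passed (20%), beside 19.1% of all tested genes. Of these, 4 were higher in TSPAN8-high (background 11.8%), with Rab4a included as a description, and 5 lower (background 7.34%). Besides those named above, the block fit added Rab25, Rab31 and Rab36 as higher and Rab28 and Rab30 as lower. With each library also scaled to a common median, it called 1 gene higher and 5 lower: Rab25, Rab31 and Rab36 then missed the threshold, while Rab28 and Rab30 passed. Of all 11142 tested genes, 868 were called higher and 1154 lower under that setting, so nothing is read from the Rab split.

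**Figure D2:**
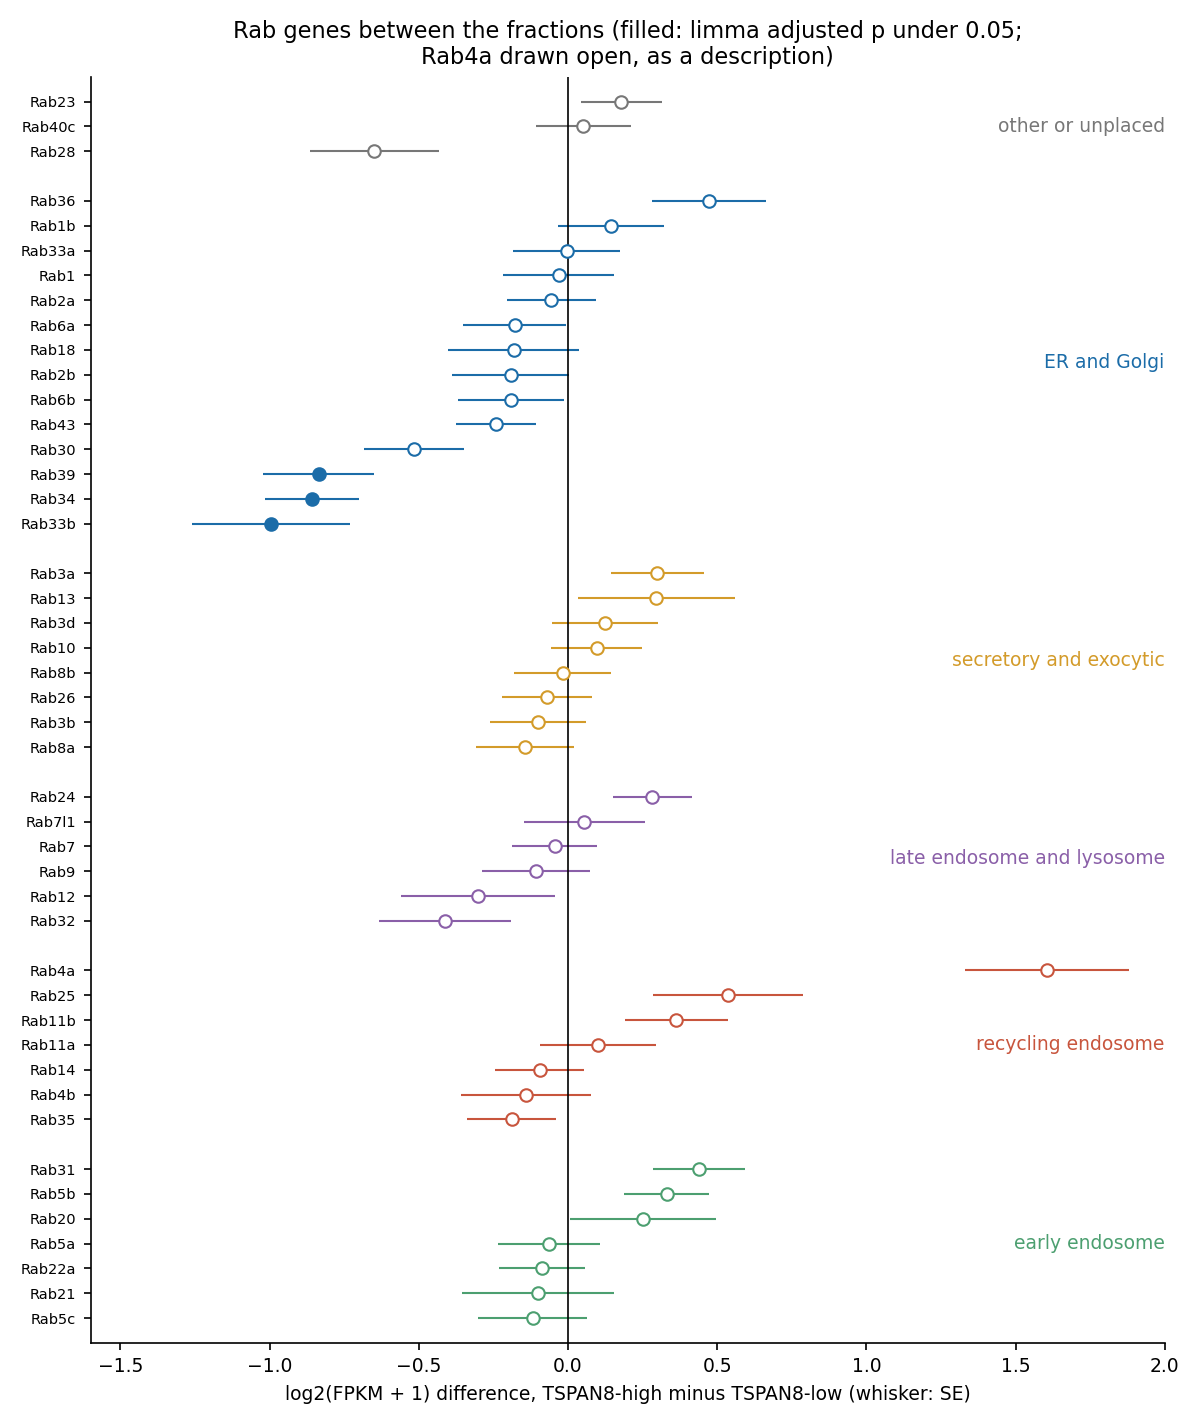
Difference of each of the 45 tested Rab genes between TSPAN8-high and TSPAN8-low on the log2(FPKM + 1) scale (x axis), by compartment, with the limma estimate as a point and its SE as a whisker. Filled points passed an adjusted p of 0.05 without the block (Rab33b, Rab34 and Rab39); Rab4a is drawn open as a description, and 12 of the 14 ER and Golgi genes lie below 0.

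In the ER and Golgi group, 3 of 14 tested genes fell in TSPAN8-high, none rose, and 12 of the 14 differences were below 0, with a median of -0.19. Over all tested genes 2.15% fell, and 4841 of 11142 differences were below 0. These 12 were below 0 also with the authors' normalized values and with a common median. Some of the 12 were near 0, such as Rab33a at -0.004 (SE 0.18) and Rab1 at -0.03 (SE 0.19). The genes were placed in compartments with earlier results of these data known, so nothing is read from these counts for the compartment. The 3 genes that fell were Rab33b, Rab34 and Rab39. Rab34 serves the Golgi, macropinosomes and the primary cilium, and Rab39 acts in traffic between Golgi and endosomes and in phagosomes.

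Rab34 stood at 13.0, 11.5 and 13.8 FPKM in TSPAN8-high, at 27.0, 21.6 and 23.3 in TSPAN8-low and at 23.0, 16.9 and 19.8 in all ID4-EGFP+ cells. The 3 TSPAN8-high libraries lay below the other 6. The difference between the fractions was -0.86 (log2, SE 0.16, limma adjusted p = 0.0110), and it was lower in TSPAN8-high in 3 of 3 replicate numbers.

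Rab39 was a low gene, at 1.15, 1.06 and 1.02 FPKM in TSPAN8-high, at 3.32, 2.89 and 2.00 in TSPAN8-low and at 2.55, 1.27 and 1.82 in all ID4-EGFP+ cells. Here too no TSPAN8-high library reached any of the other 6. The difference was -0.83 (SE 0.19, limma adjusted p = 0.0262), which the log2(FPKM + 1) scale understates at this level. On the plain scale its mean in TSPAN8-high was 0.392 of that in TSPAN8-low. Rab39 overlaps the pseudogenes Rps6-ps3 and Gm51731 in RefSeq, and their reads could not be told apart by strand.

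Rab33b, the most abundant Rab gene of all ID4-EGFP+ cells, stood at 186, 243 and 353 FPKM in TSPAN8-high and at 347, 635 and 578 in TSPAN8-low. The ranges of the fractions overlap, since TSPAN8-low replicate 1 lies below TSPAN8-high replicate 3, but within each replicate number TSPAN8-high was the lower, by 0.89, 1.38 and 0.71 on the log2 scale for numbers 1, 2 and 3. The difference was -0.99 (SE 0.27), with a limma adjusted p of 0.0496 and of 0.00176 with the block. All 3 calls depended on single libraries. Rab34 missed the threshold without TSPAN8-high replicate 2 (adjusted p = 0.0603), Rab39 when TSPAN8-low replicate 1 or 2 or TSPAN8-high replicate 2 or 3 was left out (0.0762 to 0.0855), and Rab33b without any 1 library other than TSPAN8-high replicate 3 and TSPAN8-low replicate 1 (0.0553 to 0.147).

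Rab33b made up most of the difference in the summed level of the group. The 16 ER and Golgi genes summed to 874 ± 22.8 FPKM in TSPAN8-high and to 1183 ± 74.1 in TSPAN8-low, and without Rab33b to 613 ± 62.3 and 663 ± 94.3. The housekeeping Rabs of the early secretory pathway differed little between the fractions, with differences of -0.03 for Rab1 (SE 0.19), 0.14 for Rab1b (SE 0.18), -0.06 for Rab2a (SE 0.15), -0.18 for Rab6a (SE 0.17) and -0.18 for Rab18 (SE 0.22), each no larger than its SE or little above it. Rab30, a Golgi Rab, stood at 2.48 to 2.88 FPKM in TSPAN8-high against 4.21 to 4.40 in TSPAN8-low (-0.52, limma adjusted p = 0.0981, 0.0389 with the block). Rab36, the nearest relative of Rab34, had the opposite sign, with 4.75, 3.15 and 4.94 FPKM in TSPAN8-high against 2.78, 2.74 and 2.76 in TSPAN8-low (0.47, limma adjusted p = 0.173, 0.0431 with the block).

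The stretches upstream of Rab33b, Rab34 and Rab39 are shown because these 3 genes fell together. Each is the 250 bases before the annotated start, from RefSeq on GRCm38.p6, where 48 of the 58 Rab genes had an entry: Rab33b at chr3:51483716-51483965 on the plus strand, Rab34 at chr11:78188177-78188426 on the plus strand (the more upstream of 2 annotated starts), and Rab39 at chr9:53706233-53706482 on the minus strand. Capitals mark CAGCTG, an E-box, the kind of motif bound by the E proteins that ID proteins such as ID4 sequester.
Rab33b: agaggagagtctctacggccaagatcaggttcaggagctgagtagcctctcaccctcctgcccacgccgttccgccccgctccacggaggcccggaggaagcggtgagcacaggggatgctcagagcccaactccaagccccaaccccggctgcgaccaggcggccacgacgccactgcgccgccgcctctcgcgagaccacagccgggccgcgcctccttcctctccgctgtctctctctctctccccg
Rab34: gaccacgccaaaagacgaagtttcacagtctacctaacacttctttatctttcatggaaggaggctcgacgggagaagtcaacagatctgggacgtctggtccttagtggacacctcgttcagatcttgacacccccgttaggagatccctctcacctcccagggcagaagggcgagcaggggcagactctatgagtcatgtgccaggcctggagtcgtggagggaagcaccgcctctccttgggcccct
Rab39: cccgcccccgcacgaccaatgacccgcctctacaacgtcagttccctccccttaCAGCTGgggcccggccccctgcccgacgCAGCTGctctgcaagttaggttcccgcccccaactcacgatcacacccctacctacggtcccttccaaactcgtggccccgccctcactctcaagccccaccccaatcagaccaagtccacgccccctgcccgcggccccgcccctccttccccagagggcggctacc
The motif CAGCTG was searched on both strands, as was CACGTG, and each reads the same on either strand. The motif CACCTG was searched too, on both strands, and the same bases cannot match more than 1 of these motifs. Rab39 held CAGCTG at 196 and 168 bases before its start, and the stretches of Rab33b and Rab34 held none of the 3 motifs. Other forms of the E-box were not searched or marked, such as CATGTG, which the stretch of Rab34 holds. CAGCTG was in 7 of the 48 Rab stretches (14.6%) and in 13.0% of all 32851 RefSeq stretches of this length, CACCTG in 14.6% and 17.2%, and CACGTG in 8.33% and 6.02%. The stretch of Rab33b held 23 CpG dinucleotides, that of Rab34 10 and that of Rab39 18, within the range of 3 to 40 over the 48 (median 16). These matches describe letters and are not binding sites.

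**Figure D3:**
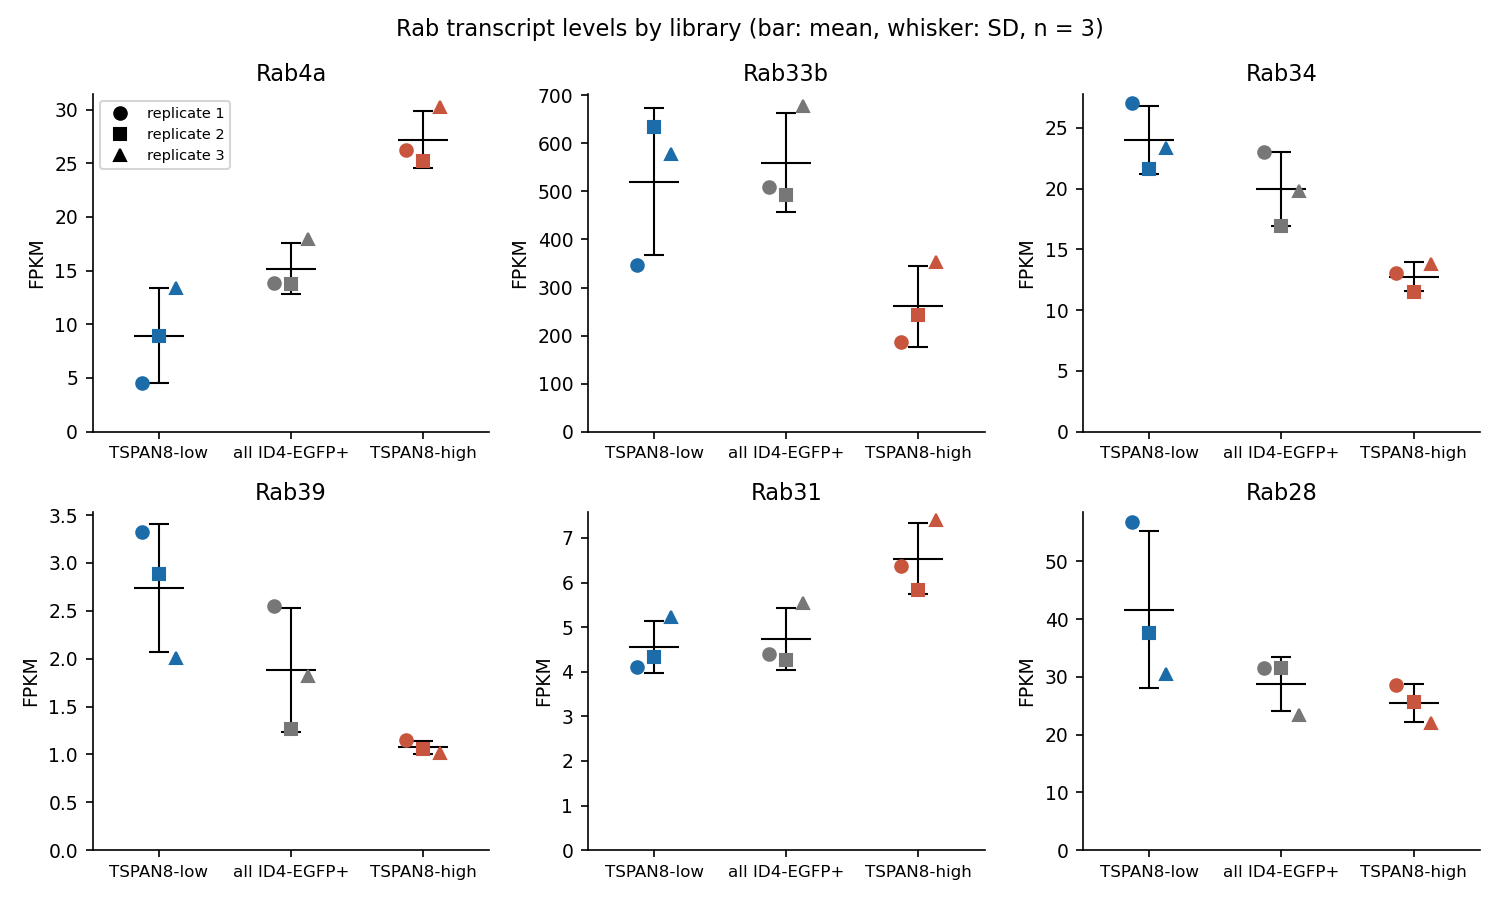
FPKM of 6 Rab genes in each library (points, shaped by replicate number and set side by side within a group), with the mean as a bar and the SD as a whisker (n = 3). Rab4a and Rab31 are higher in the 3 TSPAN8-high libraries than in TSPAN8-low, Rab34, Rab39 and Rab28 are lower, and for Rab33b the fractions overlap.

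In secretory and exocytic traffic none of the 8 tested genes passed, with or without the block, and 4 differences were above 0 and 4 below. The 12 genes summed to 148 ± 2.80 FPKM in TSPAN8-high and to 141 ± 3.25 in TSPAN8-low. Rab10 was at 69.5 ± 10.3 and 64.6 ± 4.81 FPKM (0.10, SE 0.15), and its sign turned with a common median. Rab8a was at 32.9 ± 5.63 and 36.2 ± 4.14 FPKM (-0.14, SE 0.17). Rab3a, best known from regulated exocytosis in neurons, was a well expressed gene here, at 27.1, 27.5 and 29.5 FPKM in TSPAN8-high, at 18.3, 23.2 and 27.0 in TSPAN8-low and at 31.2, 28.5 and 32.8 in all ID4-EGFP+ cells. The fractions did not overlap, but the difference of 0.30 did not pass (limma adjusted p = 0.289).

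In the early endosome none of the 7 genes passed without the block, and their sum was 134 ± 3.55 FPKM in TSPAN8-high against 138 ± 8.29 in TSPAN8-low. The leading pair of this group differed by less than the SE: Rab5a, which drives early endosome fusion, differed by -0.06 (SE 0.17) and its paralogue Rab5c by -0.12 (SE 0.18). Rab31, which acts between the trans-Golgi network and early endosomes, was at 6.37, 5.83 and 7.41 FPKM in TSPAN8-high, at 4.12, 4.33 and 5.22 in TSPAN8-low and at 4.39, 4.26 and 5.54 in all ID4-EGFP+ cells. No library outside TSPAN8-high reached its values. The difference was 0.44 (SE 0.16, limma adjusted p = 0.123, 0.0243 with the block). Rab5b, the rarest Rab5 gene, also lay wholly higher in TSPAN8-high, at 5.48 ± 0.625 against 4.14 ± 0.348 FPKM (0.33, limma adjusted p = 0.197). Rab5b overlaps the gene Pmel in the RefSeq annotation, and the library kit does not mark strand. Rab5a (Pp2d1), Rab6a (Mrpl48), Rab2b (Tox4) and Rab37 (Cd300lf) overlap protein-coding genes too. Rab36 overlaps Gm51773, which is not protein-coding.

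The recycling endosome held the widest difference of the family. Rab4a, which returns cargo from early endosomes to the surface by the short route, stood at 26.2, 25.2 and 30.2 FPKM in TSPAN8-high, at 4.54, 8.90 and 13.4 in TSPAN8-low and at 13.9, 13.7 and 17.9 in all ID4-EGFP+ cells. The groups were ordered with no overlap between any pair of them: every TSPAN8-high library lay above every all ID4-EGFP+ library, and these above every TSPAN8-low library. The mean in TSPAN8-high was 3.04 times that in TSPAN8-low. On the log2(FPKM + 1) scale the gap between the fractions was 2.30, 1.40 and 1.12 in replicate numbers 1, 2 and 3, so that the TSPAN8-low libraries, and not those of TSPAN8-high, set its spread. Rab4a overlaps a long noncoding RNA gene, Gm51601, in RefSeq.

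The other recycling Rabs did not follow it past the threshold. Rab4b, its paralogue and the more abundant of the pair, was at 41.0 ± 4.51 FPKM in TSPAN8-high against 45.7 ± 9.00 in TSPAN8-low (-0.14, SE 0.22). Rab11a was at 347 ± 51.9 and 322 ± 22.3 FPKM (0.10, SE 0.20), and Rab14, which links endosomes and Golgi, at 70.6 ± 3.52 and 75.9 ± 11.0 (-0.09, SE 0.15). Rab25, the epithelial relative of Rab11a, was at 8.77, 6.32 and 9.82 FPKM in TSPAN8-high against 3.94, 4.30 and 8.67 in TSPAN8-low, higher within each number though the ranges overlap (0.54, limma adjusted p = 0.236, 0.0410 with the block). Rab11b had the same sign (0.36, limma adjusted p = 0.244) and Rab35 the other (-0.19, SE 0.15). Rab15 stayed at most at 0.192 FPKM in any library.

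In the late endosome and lysosome none of the 6 tested genes passed, with or without the block. Rab7, which directs fusion with lysosomes, was at 154, 150 and 168 FPKM in TSPAN8-high against 144, 166 and 177 in TSPAN8-low (-0.04, SE 0.14). Rab9, which acts in retrieval from late endosomes to the trans-Golgi network, was at 45.1 ± 0.883 and 48.9 ± 6.41 FPKM (-0.11, SE 0.18). Rab24, linked to autophagy, lay wholly higher in TSPAN8-high, at 24.7 to 28.0 against 20.7 to 21.7 FPKM, a narrow gap that did not pass (0.28, limma adjusted p = 0.235). Rab32, a Rab of lysosome-related organelles, was lower within each number (-0.41, limma adjusted p = 0.300) and low throughout, at 0.686 to 3.47 FPKM.

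Of the genes placed elsewhere, Rab28, known from the cilium and photoreceptors, stood at 28.6, 25.7 and 22.0 FPKM in TSPAN8-high against 56.8, 37.6 and 30.5 in TSPAN8-low. All 3 TSPAN8-low values lay higher, that of replicate 1 by far (-0.65, SE 0.22, limma adjusted p = 0.105, 0.00652 with the block). Rab23, which restrains Hedgehog signalling, differed by 0.18 (SE 0.14), and Rab40c, part of a ubiquitin ligase, by 0.05 (SE 0.16), with a sign that depended on the scaling.

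Paralogues often split unevenly, and in several sets the shares of the 2 fractions overlapped. Rab2a gave 95.7 to 97.6% of the summed FPKM of Rab2a and Rab2b over the 9 libraries, Rab6a 92.8 to 95.7% of the Rab6 pair, Rab8a 84.4 to 92.0% of the Rab8 pair, Rab11a 80.5 to 90.7% of Rab11a, Rab11b and Rab25, and Rab9 99.6 to 100.0% of the Rab9 pair. The shares of the fractions also overlapped in the Rab1, Rab33, Rab27 and Rab40 pairs and for Rab32 and Rab38. In 4 pairs the share differed without overlap between the fractions, given here as a description. Among all tested genes taken singly, 15.9% lay wholly higher in TSPAN8-high and 9.71% wholly lower. Nothing is therefore read from the number of such pairs. Rab4a made up 37.9, 41.2 and 40.6% of the Rab4 pair in TSPAN8-high and 10.2, 17.8 and 19.3% in TSPAN8-low. Rab36 made up 24.9 ± 2.89% of Rab34 and Rab36 together in TSPAN8-high and 10.4 ± 0.974% in TSPAN8-low, the values of Rab34 being lower and those of Rab36 higher in TSPAN8-high. Rab39b made up 28.1 ± 7.43% and 13.1 ± 3.53% of the Rab39 pair; its own level was 0.431 ± 0.160 and 0.411 ± 0.144 FPKM, while Rab39 was lower in TSPAN8-high. Rab31 made up 21.2 ± 1.85% of Rab22a and Rab31 in TSPAN8-high and 15.0 ± 1.84% in TSPAN8-low. In the larger sets, Rab5b made up 6.03 ± 0.577% of the Rab5 genes in TSPAN8-high and 4.34 ± 0.132% in TSPAN8-low, and Rab3a 81.2 ± 0.860% and 77.0 ± 2.27% of the Rab3 genes, again without overlap. Shares of near-identical transcripts depend on how the authors' software divided reads between them.

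**Figure D4:**
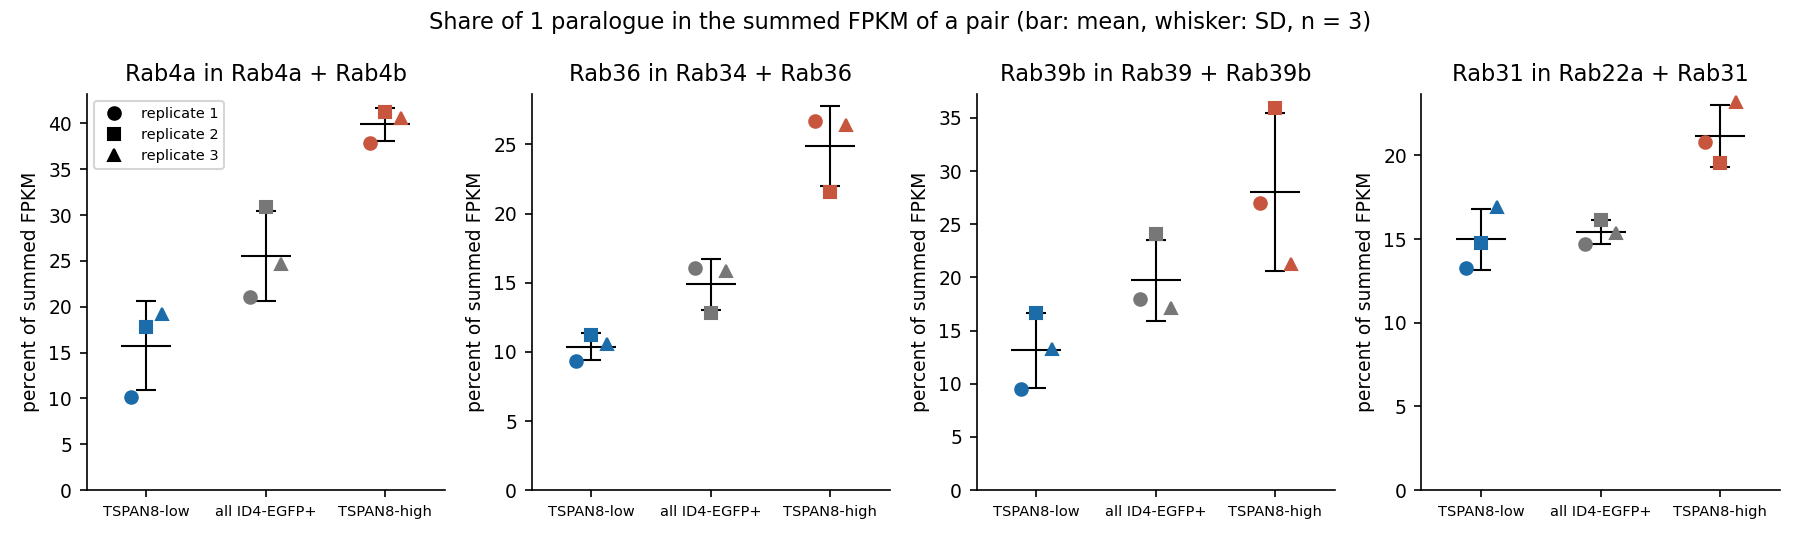
Share of 1 paralogue in the summed FPKM of its pair, in percent, in each library (points by replicate number) with the mean and SD (n = 3). Only the 4 pairs whose shares did not overlap between the fractions are drawn. In each, the paralogue with the larger share in TSPAN8-high than in TSPAN8-low is shown, so this separation follows from the choice. The shares in all ID4-EGFP+ cells lie below TSPAN8-high for Rab4a, Rab36 and Rab31.

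Against all ID4-EGFP+ cells, which hold both fractions, no Rab gene passed. These comparisons share their libraries with the one above and with each other, so they are not independent of it. For TSPAN8-high, 0 of 45 genes passed by limma, beside a background of 0.144% of all tested genes. At an unadjusted limma p under 0.05 stood 5 of the 45, beside 1085 of all 11142 tested genes. With the block 3 passed, beside a background of 3.09%: Rab33b at -1.13 (SE 0.27, limma adjusted p = 0.0875, 0.00278 with the block), Rab34 at -0.60 (SE 0.16, 0.147, 0.0153 with the block) and Rab4a, whose values are a description here too. Rab33b also passed without the block when TSPAN8-high replicate 3 or TSPAN8-low replicate 1 was left out. With the block and a common median, 2 of the 3 passed, both lower. The calls over all tested genes were not counted under that setting for this comparison, so nothing is read from this count. For TSPAN8-low, 0 of 45 passed by limma without the block (background 0%) and 0 with it (background 0.0449%). At an unadjusted limma p under 0.05 stood 4 of the 45, beside 910 of all 11142 tested genes. Rab4a aside, the largest Rab difference there was that of Rab32, at 0.72 (SE 0.22, limma adjusted p = 0.600). In TSPAN8-low, Rab33b differed from all ID4-EGFP+ cells by -0.14 (SE 0.27) and Rab34 by 0.26 (SE 0.16). Rab34 was higher in TSPAN8-low within each replicate number (27.0, 21.6 and 23.3 against 23.0, 16.9 and 19.8 FPKM).

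The genes that load, unload and read Rab proteins were looked at through 6 lists, of which 99 genes were tested. Between the fractions 1 rose and 1 fell, beside the background of 5.56% of all tested genes. With the block 14 rose and 4 fell, beside 11.8% higher and 7.34% lower of all tested genes. Over all genes the block calls split 1313 higher to 818 lower, but 868 to 1154 with a common median too. The lists were not counted under that scaling, so nothing is read from their balance of rises and falls. These lists were written with earlier results of these data known, the difference of Optn among them, so its call is no independent support. The gene that rose was Optn, an effector of Rab8 that is also an autophagy receptor, on the secretory and Golgi list. It stood at 17.9, 25.8 and 27.6 FPKM in TSPAN8-high against 4.58, 7.59 and 6.90 in TSPAN8-low (1.75, SE 0.22, limma adjusted p = 0.00237). The gene that fell was Ankfy1, a Rab5 effector that acts in macropinocytosis, on the early and recycling list, at 56.2, 67.7 and 97.5 FPKM in TSPAN8-high against 103, 165 and 162 in TSPAN8-low (-0.95, SE 0.23, limma adjusted p = 0.0364). The fractions did not overlap for either gene. Ankfy1 missed the threshold when any 1 of TSPAN8-low replicates 2 and 3 and TSPAN8-high replicates 1 and 2 was left out (limma adjusted p = 0.0827 to 0.124).

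None of the 8 genes for prenylation and membrane recycling passed (median 0.13). Gdi2, a GDP dissociation inhibitor, which extracts Rabs from membranes, was higher in each of the 3 TSPAN8-high libraries than in any TSPAN8-low library, at 163 ± 16.4 against 106 ± 23.2 FPKM (0.63, limma adjusted p = 0.0660, 0.00883 with the block). Rabac1, a receptor for prenylated Rabs, differed by 0.36 (limma adjusted p = 0.300). With the block 2 exchange factors were called higher and 2 lower, Dennd5b (-0.68, limma adjusted p = 0.119, 0.00998 with the block) among the lower. None of the 22 passed without the block (median 0.07). The nearest were Rin1, which activates Rab5, at 10.3 ± 3.38 against 19.7 ± 5.82 FPKM (-0.88, limma adjusted p = 0.0682, 0.00267 with the block), Rab3ip, which activates Rab8, at 28.9 ± 2.60 against 19.8 ± 1.98 (0.52, 0.0717, 0.00690 with the block) and Dennd2d (0.57, 0.0976, 0.0250 with the block).

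None of the 27 GAP genes passed (median 0.15). The nearest were Tbc1d4 (0.50, limma adjusted p = 0.0781), which reached the filter only through its 3 TSPAN8-high libraries at 1.02 to 1.33 FPKM, Tbc1d24 (-0.42, 0.0826) and Evi5 (0.46, 0.186). With the block Tbc1d24 and Evi5 passed; so did Tbc1d4, but a gene that entered only through the group where it is high had to differ, and nothing is read from its call. Among the 17 early and recycling effectors the median was -0.15, and Rabep1, which binds Rab5 and Rab4, was at 21.4 ± 2.68 against 14.4 ± 1.66 FPKM (0.54, limma adjusted p = 0.0801, 0.0180 with the block), while Rufy1, a Rab4 effector, differed by 0.57 (0.143, 0.0279 with the block). Of the 11 late endosome effectors 10 were above 0 (median 0.25) and none passed. Over all 11142 tested genes, 6301 differences were above 0 (median 0.05). The tethering complex subunits Vps11 (0.57, limma adjusted p = 0.141) and Vps16 (0.64, 0.188) and the Rab9 effector Plin3 (0.53, 0.256) passed with the block. Of the 14 secretory and Golgi effectors 11 were above 0 (median 0.25), among them Golga4, a golgin (0.44, limma adjusted p = 0.117, 0.0482 with the block), and Exoc6, an exocyst subunit (0.44, 0.154).

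**Figure D5:**
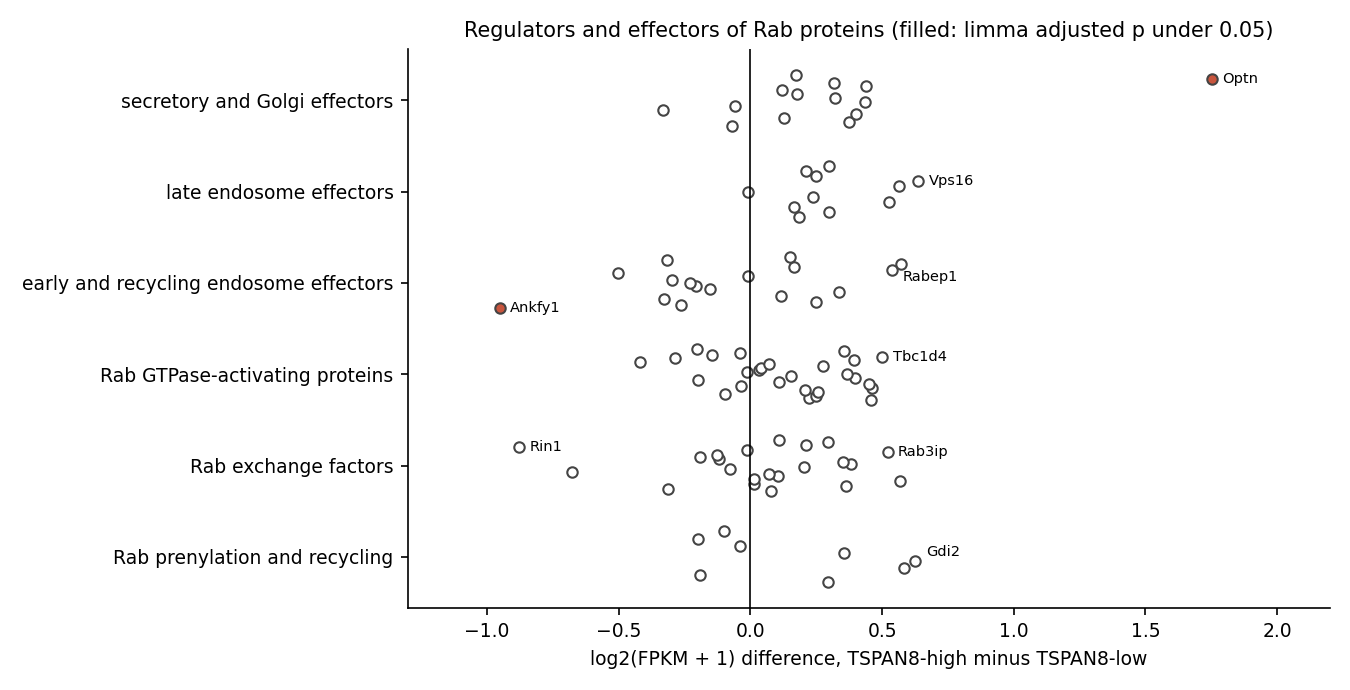
Difference between TSPAN8-high and TSPAN8-low on the log2(FPKM + 1) scale (x axis) for the 99 tested regulators and effectors of Rab proteins, 1 row per list, 1 point per gene; the height within a row only keeps points apart. Filled points passed a limma adjusted p of 0.05: Optn at 1.75 and Ankfy1 at -0.95.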

How the data were processed

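RNA sequencing covered 9 libraries in 3 groups, taken from the titles. The kits were SMART-Seq v4, which is not stranded, and Nextera XT, per the labels' protocols. The authors deposited FPKM values per library, made with TopHat2 2.0.12, Bowtie2 2.2.3.0 and Cufflinks on mm9, per the submitters' processing notes. No label names the gene annotation. A normalized signal per gene, deposited too, served only as an alternative.

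Of 23813 entries, 768 with one of 262 repeated symbols were left out (0 of them Rab genes), and 27 showed a date for a symbol. Genes at 1 FPKM or more in at least 3 of 9 libraries (11142) entered 1 fit of 3 groups on log2(FPKM + 1), by limma 3.58.1 (R 4.3.3; eBayes with a trend; two-sided tests), with Benjamini-Hochberg adjustment over all of them and a threshold of 0.05. The scale understates the change of low genes. Differences are the first group minus the second; means ± SD are of FPKM with n = 3. The fit was tested on simulated data. Python 3.11.15 and matplotlib 3.10.9 made tables and plots.

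Libraries of the same replicate number deviated together (9 pairs, r of 0.26 to 0.48; 18 other pairs, -0.46 to 0.28), so the number was taken to pair them and a fit with it as a block is given where it changes a call. The members and lists were chosen with earlier results of these data known. Named were Rab4a, Rab genes past the threshold, the 2 highest per compartment, those next to the filter, and per list the 3 genes with the smallest unadjusted p (1 such gene is not reported here); other Rab genes with values were picked after these were seen. Alternatives were a pseudocount of 0.1, no filter, the authors' normalized values, a common median, the block, and leaving out each library; the block with a common median was added after seeing the data.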

Additional observations from a re-analysis of the deposited data

How the results depend on the processing

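Between the fractions 4 Rab genes passed the limma threshold. Rab4a is included in this count and those below, although its values are a description and not a test. These counts describe only how the calls depend on the processing. The count was 2 with no filter and 9 with the replicate block, and leaving out 1 library gave 1 to 4; it was lowest without TSPAN8-high replicate 2, where only Rab4a remained, and 2 without TSPAN8-low replicate 2 (Rab34 and Rab4a). For TSPAN8-high against all ID4-EGFP+ cells the count was 0, with 3 under the block, 2 under the block with a common median, and 0 to 1 without 1 library. For TSPAN8-low against all ID4-EGFP+ cells it was 0 under every alternative run. None of the called differences (Rab33b, Rab34, Rab39, Ankfy1 and Optn) changed sign in 15 alternatives. Rab34 lost its call in 1 of them, Rab39 and Ankfy1 in 5 each, Rab33b in 9 and Optn in 0. With no filter more genes are tested; the cause of the other changes was not tested. Over all genes the calls split 380 higher to 239 lower, but 223 to 307 with the authors' normalized values and 255 to 360 with a common median, while the Rab calls stayed at 1 to 3; with the block the split was 1313 to 818, and 868 to 1154 with a common median too. Without counts, the precision of the low Rab genes cannot be given.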
